A study of Mus musculus with 6 samples.

Results

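Glycolysis and the response to low oxygen were examined through 36 genes in mouse embryonic fibroblasts (MEFs) that differ in the gene Ngly1. The genes were those rows of the deposited count table whose symbol matched a list of glucose transporters, glycolytic enzymes, regulators of pyruvate use, hypoxia-inducible factor (HIF) subunits and regulators, and hypoxia targets. All 36 were present among the 23842 genes of the table. Total RNA had been sequenced from 3 libraries labelled NGLY1-/- and 3 labelled WT, all of strain C57BL/6 and grown untreated in high-glucose medium with serum. The design asks which transcripts differ when NGLY1, the cytosolic enzyme that removes N-glycans from misfolded glycoproteins, is missing. The labels do not name the deleted part of the gene, the passage number, or the embryos or dishes from which a group's libraries came. The p-values therefore reflect library-to-library spread that could be technical.

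Depth was 33007239 to 37841558 total counts for knockout-labelled and 27323577 to 37790710 for wild-type libraries. Ngly1 itself stood at 14.6 ± 3.11 CPM (counts scaled to library size) in the knockout-labelled and 14.6 ± 2.94 CPM in the wild-type libraries (SD, n = 3 each). Because reads were summed over the gene, a partial deletion could go unseen. These values are no check of the genotype, and the directions below rest on the labels. Fibroblast markers (9 of 10 tested, 2 higher and 5 lower) summed to 10500 to 11700 CPM in the knockout-labelled and 7280 to 8150 CPM in the wild-type libraries, while Lum, a proteoglycan gene on that list, had at most 1 count in any library. Fn1, the fibronectin gene, made up 6840 to 7760 against 1840 to 2330 CPM of these sums, and the other 9 markers summed to 3630 to 4160 against 5190 to 5820 CPM, the opposite direction. Epithelial markers (4 of 5 tested, 3 lower), mostly Krt19, summed to 22.1 to 31.3 against 54.1 to 108 CPM. Skeletal muscle markers (2 of 6 tested, 1 higher) reached 4.03 to 4.29 against 0.796 to 1.39 CPM with Ckm at 0 or 1 count. Des, on that list, had 124, 124 and 115 against 34, 16 and 3 counts. Neuronal and glial ones (4 of 6 tested, 2 higher) reached 59.3 to 72.8 against 37.9 to 46.3 CPM with Gfap at 0 or 1 count. Most of these counts were from Tubb3 (1387, 1153 and 1193 against 438, 566 and 383) and Map2 (892, 674 and 758 against 1183, 1144 and 603). Sox2 had 85, 60 and 71 against 11, 11 and 7 counts. Leukocyte markers (2 of 6 tested, 1 higher) summed to 8.81 to 9.98 against 5.08 to 8.37 CPM with Ptprc at 0 to 3 counts. Most of these counts were from Cd14 (215, 235 and 261 against 194, 193 and 86) and Cd68 (82, 84 and 89 against 133, 90 and 49). Endothelial ones (2 of 4 tested, 1 higher) summed to 2.73 to 2.86 against 1.49 to 2.19 CPM, and adipocyte ones (1 of 4 tested, 1 lower) to 0.479 to 0.796 against 1.61 to 3.22 CPM. The part of these markers in the results below was not tested. In bulk RNA, fewer cells of a type and less RNA per cell cannot be told apart.

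Glycolysis converts glucose to pyruvate in the cytosol, and lactate dehydrogenase or the mitochondrial pyruvate dehydrogenase complex then takes the pyruvate onward. HIF is a heterodimer whose alpha subunit is hydroxylated by oxygen-dependent prolyl hydroxylases, recognised by the von Hippel-Lindau protein and degraded. When oxygen is scarce the alpha subunit persists and activates genes for glucose uptake, nearly every glycolytic step, angiogenesis and collagen modification, along with the genes of some of its own hydroxylases. Embryonic fibroblasts in culture are strongly glycolytic even in air.

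Most of the pathway was lower in the knockout-labelled libraries. Of the 36 genes, all of which passed the filter on low counts, 24 were lower, 6 were higher and 6 did not pass a false discovery rate of 5% (edgeR's quasi-likelihood test, Benjamini-Hochberg adjustment over 15039 genes). In the same comparison 60.9% of all tested genes were called, with 30.2% of the tested genes lower and 30.7% higher. The median log2 fold change was -0.79 over the 36 genes and -0.04 over all tested genes. Among members, 15 were lower and 4 higher by 2-fold or more, against 14.9% and 13.6% of all tested genes. Knockout-labelled and wild-type values were separate for 31 members, and for 67.3% of all tested genes. The plot of fold changes in pathway order shows the lower genes spread along the whole route from glucose entry to pyruvate while 3 of the 6 higher ones are hypoxia targets.

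**Figure D1:**
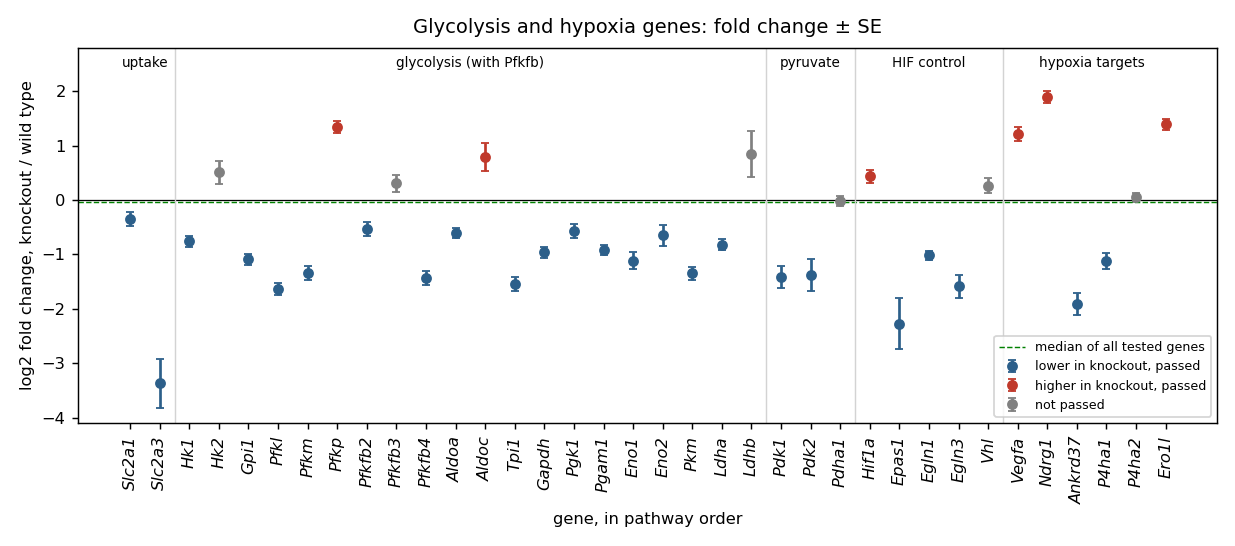
Log2 fold change (knockout-labelled over wild-type libraries, vertical axis) of each of the 36 genes in pathway order, with the standard error of the fit as bars. Of the points, 24 are lower and passed the test, 6 are higher and passed, and 6 did not pass; the dashed line is the median of all tested genes, -0.04.

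The 17 glycolytic enzyme genes took 1.02% to 1.15% of all counts in the wild-type libraries and 0.467% to 0.526% in the knockout-labelled ones, so the groups did not overlap. Of these genes 13 were lower, 2 were higher (Pfkp and Aldoc) and 2 did not pass (Hk2 and Ldhb). Of all tested genes 30.2% were lower and 30.7% higher. The median log2 fold change was -0.82 over the enzyme genes and -0.04 over all tested genes. Per kilobase of transcript, the wild-type order was led by Pkm at 1290 CPM per kb, followed by Gapdh at 993, Eno1 at 668 and Ldha at 560. In the knockout-labelled libraries Gapdh and Pkm were nearly level, at 510 and 509 CPM per kb, with Ldha at 318 and Eno1 at 309.

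At the entry of glucose, Slc2a1, the ubiquitous transporter GLUT1, read 130, 94.8 and 98.3 CPM in knockout-labelled replicates 1, 2 and 3 and 138, 133 and 139 CPM in the wild-type ones. Its highest knockout-labelled library lay just under the lowest wild-type one. The decrease was 1.27-fold (adjusted p = 0.032), and the call was lost without knockout replicate 2 or 3 or without wild-type replicate 1 or 2 (adjusted p = 0.153, 0.147, 0.061 and 0.0673). Slc2a3, the high-affinity transporter GLUT3, was barely expressed, with 70, 65 and 43 counts in the wild-type and 3, 9 and 4 in the knockout-labelled libraries. It was 10.3-fold lower (adjusted p = 0.000111), with a log2 fold change of -3.37 that became -3.98 without knockout replicate 2. Its range overlaps that of the pseudogene Gm4482, which held 65 counts in all against 194 for Slc2a3 and did not pass (adjusted p = 0.845).

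Hexokinase traps glucose in the cell as glucose 6-phosphate. Hk1, the constitutive form, fell from 178 ± 7.99 to 105 ± 9.26 CPM (SD, n = 3 each), a 1.69-fold decrease (adjusted p = 8.57e-05). Hk2, the insulin- and HIF-responsive form, read 110, 86.7 and 115 CPM in the knockout-labelled libraries and 58.8, 60.1 and 100 CPM in the wild-type ones. Wild-type replicate 3 reached into the knockout range, and Hk2 did not pass (log2 fold change 0.51 ± 0.21 SE, adjusted p = 0.0617). It passed without wild-type replicate 3 (0.82, adjusted p = 6.75e-06) and without knockout replicate 2 (0.64, adjusted p = 0.047). With all 6 libraries it also passed by the DESeq2 test (0.51, adjusted p = 0.026) and by limma-voom (0.55, adjusted p = 0.0308). Gpi1, which makes fructose 6-phosphate, stood at 154, 166 and 145 CPM in the knockout-labelled libraries against 340, 350 and 301 CPM. The groups were far apart, and the decrease was 2.13-fold (adjusted p = 1.02e-05).

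The phosphofructokinase step, the main control point of the pathway, had isoenzyme genes that moved in opposite directions. Pfkl, the liver-type subunit, read 115, 115 and 93.8 CPM in the knockout-labelled libraries and 345, 350 and 308 CPM in the wild-type ones. Pfkm, the muscle-type subunit, read 27.4, 29 and 28.9 against 81.8, 75.6 and 59.3 CPM. These genes were 3.10-fold and 2.54-fold lower (adjusted p = 1.4e-06 and 1.16e-05), with no overlap between groups. Pfkp, the platelet-type subunit, went the other way, with 192, 165 and 154 CPM against 73.8, 67.1 and 60.5 CPM. Its rise was 2.53-fold (adjusted p = 6.66e-06). Per kilobase, Pfkp made up 12.4% ± 0.491 of the phosphofructokinase counts in the wild-type libraries and 51.4% ± 2.12 in the knockout-labelled ones, while Pfkl went from 68.5% ± 1.74 to 36.2% ± 1.81 (SD, n = 3 each). The summed level of the 3 genes was 131 ± 11.5 CPM per kb in the wild type and 79.8 ± 7.17 in the knockout-labelled libraries, 1.64 times lower, with no overlap between groups. The RefSeq range of Pfkp shares 285 bases with that of Pitrm1, a mitochondrial peptidase gene that was also higher (2.01-fold, adjusted p = 6.99e-06), and that of Pfkm shares 981 bases with Senp1 (log2 fold change 0.03, adjusted p = 0.8). Whether counting used strand is not stated, and reads in such overlaps could have gone to either gene.

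**Figure D2:**
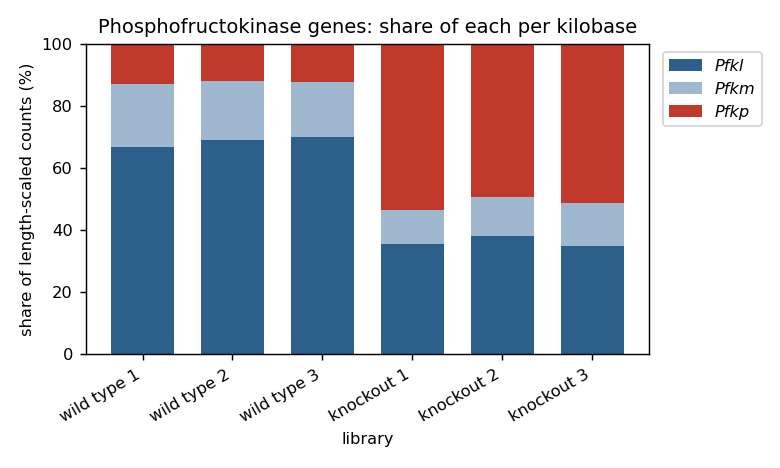
Share (vertical axis, percent) of Pfkl, Pfkm and Pfkp in the summed phosphofructokinase counts per kilobase of transcript, one bar per library. Pfkp takes 11.9% to 12.8% in the wild-type and 49.3% to 53.5% in the knockout-labelled libraries.

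The proximal promoters of the oppositely moving Pfkl and Pfkp, and of Gpi1 between hexokinase and phosphofructokinase, are shown because HIF binds a core that reads ACGTG or GCGTG. Each is the stretch of 250 bases before the RefSeq start site (GRCm38.p6), 5′ to 3′ on the gene's strand, with matches to ACGTG or GCGTG on either strand in capitals (the reverse strand reads CACGT or CACGC). The palindrome CACGTG would count as 2 overlapping matches. Pfkl lies at chr10:78009808-78010057, Pfkp at chr13:6648772-6649021 and Gpi1 at chr7:34230337-34230586, all on the minus strand.
Pfkl: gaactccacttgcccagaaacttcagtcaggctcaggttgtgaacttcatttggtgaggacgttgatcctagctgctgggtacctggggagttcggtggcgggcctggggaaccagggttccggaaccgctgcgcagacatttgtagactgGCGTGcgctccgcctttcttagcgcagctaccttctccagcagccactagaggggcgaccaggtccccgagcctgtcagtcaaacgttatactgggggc
Pfkp: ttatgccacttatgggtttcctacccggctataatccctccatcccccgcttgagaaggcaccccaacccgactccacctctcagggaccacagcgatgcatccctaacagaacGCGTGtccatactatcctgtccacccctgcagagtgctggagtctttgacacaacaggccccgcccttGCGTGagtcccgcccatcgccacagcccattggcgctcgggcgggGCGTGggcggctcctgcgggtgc
Gpi1: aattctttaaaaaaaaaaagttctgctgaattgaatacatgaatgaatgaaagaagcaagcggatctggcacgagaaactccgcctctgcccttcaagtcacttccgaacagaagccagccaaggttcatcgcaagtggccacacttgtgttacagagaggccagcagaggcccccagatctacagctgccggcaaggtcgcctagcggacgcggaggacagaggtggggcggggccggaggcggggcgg
Pfkl held 1 match, its first base 99 bases before the start, Pfkp held 3, at 136, 68 and 23 bases before it, and Gpi1 held 0 in this window. Of 50 such windows found for 33 of the 36 genes, 78% held a match, against 51.6% of the windows of protein-coding genes in the table and 38.6% of all 32851 windows. Windows of one gene can overlap. By gene, a match was found for 19 of 22 lower members with a window, 5 of 5 higher members and 5 of 6 that did not pass. With the 50 bases after the start included, 87.9% of the 33 members and 46.7% of all genes held a match in any window. Genes with several windows have more room for a match. No by-gene share was computed for protein-coding genes alone. All 36 members passed the filter on low counts, but no share was computed for windows of the tested genes alone. A match is only a description of the sequence, not a bound site.

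Fructose 2,6-bisphosphate, the strongest allosteric activator of phosphofructokinase, is made and removed by bifunctional enzymes. Pfkfb4, a hypoxia-inducible form, read 6.13, 6.25 and 5.55 CPM against 16.7, 16.6 and 15.1 CPM, a 2.70-fold decrease (adjusted p = 1.03e-05). Pfkfb2, the heart form, was 1.45-fold lower (adjusted p = 0.00495), although its range overlaps that of Yod1 (log2 fold change -0.12, adjusted p = 0.413). Pfkfb3, the form with the highest kinase activity, did not pass, at 11.4, 10.8 and 13.2 against 10.9, 8.06 and 9.77 CPM (log2 fold change 0.31 ± 0.16 SE, adjusted p = 0.115). Its groups overlapped.

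Downstream of phosphofructokinase the main enzyme genes were lower at each step, by unequal amounts. Aldoa, the main aldolase, read 475, 470 and 457 CPM in the knockout-labelled and 718, 754 and 666 CPM in the wild-type libraries, a 1.53-fold decrease (adjusted p = 0.000278). Aldoc, the brain-type aldolase, stood at 4.11 ± 0.814 CPM against 2.37 ± 0.581 CPM in the wild type, a rise with an adjusted p of 0.023 (SD, n = 3 per group). Leaving out knockout replicate 1 or 2 ended that call (adjusted p = 0.0938 and 0.0603) as did scaling by library totals only (adjusted p = 0.054). Tpi1, which interconverts the triose phosphates, read 311, 296 and 246 against 873, 910 and 713 CPM and was 2.93-fold lower (adjusted p = 5.65e-06). Gapdh, often used as a reference gene, read 746, 742 and 687 CPM in the knockout-labelled libraries and 1384, 1472 and 1373 CPM in the wild-type ones, a 1.94-fold decrease (adjusted p = 2.37e-05). Pgk1, the first enzyme of the route to yield ATP, and Pgam1, the mutase that follows, were 1.48-fold and 1.88-fold lower (adjusted p = 0.0026 and 2.63e-05). For Aldoa, Tpi1, Gapdh, Pgk1 and Pgam1 the groups did not overlap.

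Eno1, the ubiquitous enolase, had 502, 653 and 726 CPM in the knockout-labelled libraries and 1175, 1360 and 1528 CPM in the wild-type ones, a 2.16-fold decrease (adjusted p = 0.000167). Eno2, the neuronal enolase, read 25.9, 25.9 and 23.2 against 48.7, 41.4 and 27 CPM. Wild-type replicate 3 stood nearest to the knockout-labelled libraries, and the 1.57-fold decrease (adjusted p = 0.015) was no longer called without knockout replicate 3 (adjusted p = 0.0652). Pkm, the pyruvate kinase gene and the member with the highest CPM, read 1352, 1242 and 1117 against 3071, 3312 and 3033 CPM, 2.54-fold lower (adjusted p = 8.06e-06). Counts per gene cannot separate its M1 and M2 splice forms. Ldha, which turns pyruvate into lactate, read 592, 596 and 543 CPM against 1032, 1061 and 956 CPM in the wild type, 1.76-fold lower (adjusted p = 6.31e-05). Ldhb, which favours the reverse reaction, was close to absent, with counts of 40, 39 and 48 under the knockout label and 24, 43 and 9 under the wild-type label, and did not pass (adjusted p = 0.105). It passed without wild-type replicate 2 (log2 fold change 1.41, adjusted p = 0.0204).

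The table also lists pseudogenes of these enzymes, whose near-identical sequence could have exchanged reads with them. Rows described as pseudogenes of Gapdh, 135 in number, held 2.82% of the counts of gene and pseudogenes together, those of Pgam1 4.16%, and those of Pkm, Ldha, Eno1, Aldoa and Tpi1 1% or less. For Ldhb the share was 11.4%.

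Around pyruvate, Pdk1 and Pdk2, which encode kinases that switch off pyruvate dehydrogenase, were lower, and Pdha1, which encodes a subunit of that enzyme, did not pass. Pdk1, a HIF target, read 52.3, 54.4 and 37.1 CPM in the knockout-labelled libraries and 152, 136 and 94.8 CPM in the wild-type ones, 2.67-fold lower (adjusted p = 0.000275). Pdk2 fell 2.59-fold from a low level of 3.91 ± 0.825 CPM (SD, n = 3; adjusted p = 0.00259). Pdha1, the catalytic E1 alpha subunit on the X chromosome, had overlapping groups of 230, 219 and 223 against 207, 227 and 247 CPM (log2 fold change -0.02 ± 0.10 SE, adjusted p = 0.863).

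**Figure D3:**
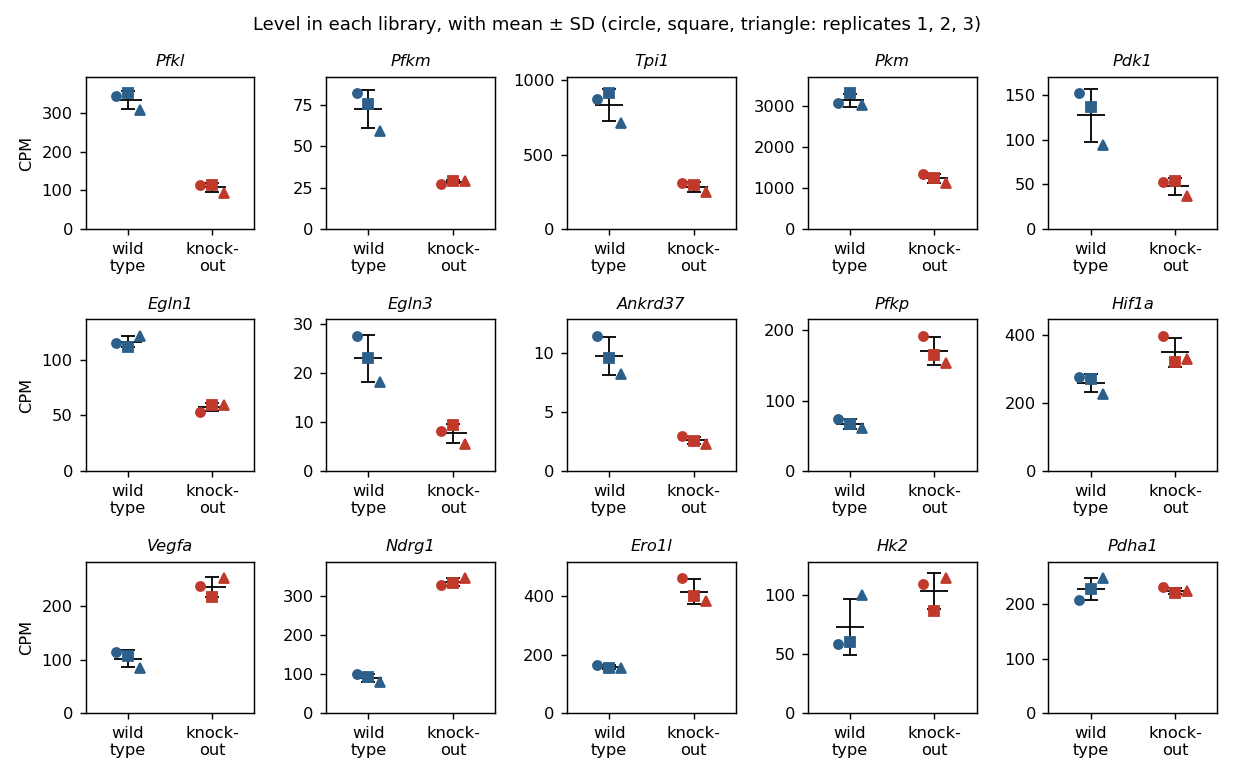
CPM (vertical axes from 0) of 15 of the genes in each wild-type (blue) and knockout-labelled (red) library, with mean ± SD in black. Pfkl, Pfkm, Tpi1, Pkm, Pdk1, Egln1, Egln3 and Ankrd37 lie lower in the 3 knockout-labelled libraries, Pfkp, Hif1a, Vegfa, Ndrg1 and Ero1l higher, and the groups overlap for Hk2 and Pdha1.

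The genes of the HIF alpha subunits moved in opposite directions, and the prolyl hydroxylase genes Egln1 and Egln3 were lower. Hif1a, encoding the HIF-1 alpha subunit, read 399, 320 and 332 CPM in the knockout-labelled and 276, 271 and 228 CPM in the wild-type libraries. It was 1.35-fold higher (adjusted p = 0.00898), with no overlap. HIF-1 alpha is controlled mainly at the protein level, which was not measured. Epas1, encoding HIF-2 alpha, was at the edge of detection, with 41, 31 and 30 counts in the wild type and 10, 7 and 3 in the knockout-labelled libraries, 4.83-fold lower (adjusted p = 0.00188). Egln1, the prolyl hydroxylase PHD2 that marks HIF alpha for destruction, read 53, 59.6 and 59.1 against 115, 112 and 122 CPM, a 2.03-fold decrease (adjusted p = 8.67e-06). Egln3, the hydroxylase PHD3 and itself a HIF target, read 8.14, 9.36 and 5.61 against 27.6, 23.1 and 18.2 CPM, 2.99-fold lower (adjusted p = 0.000149). Egln2, the remaining gene of these hydroxylases and named after its values were seen, did not pass (log2 fold change -0.17, adjusted p = 0.143). Vhl, the recognition subunit of the ligase, did not pass (39, 38 and 32.8 against 34, 32.6 and 24.8 CPM, adjusted p = 0.121).

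Of the 6 genes listed as hypoxia targets, 3 were higher, 2 lower and 1 did not pass, and the 5 called had non-overlapping groups. Of all tested genes 30.7% were higher, 30.2% lower and 67.3% non-overlapping, so these counts are not a result about the targets. Pdk1 and Egln3, described above as HIF targets, were lower and are not among these 6. Higher were Ndrg1, a stress-responsive gene of differentiation, Ero1l, the oxidase that drives disulfide formation in the endoplasmic reticulum, and Vegfa, the angiogenic growth factor. Ndrg1 read 328, 332 and 346 CPM in the knockout-labelled libraries against 99.4, 92.3 and 79.5 CPM, 3.71-fold higher (adjusted p = 4.02e-07). Ero1l read 461, 401 and 381 against 165, 154 and 154 CPM, 2.63-fold higher (adjusted p = 2.4e-06). Vegfa read 238, 216 and 252 against 114, 106 and 83.6 CPM, 2.32-fold higher (adjusted p = 2.47e-05). Lower were Ankrd37, a small ankyrin-repeat gene known as a HIF-1 target, and P4ha1, a subunit of the collagen prolyl 4-hydroxylase. Ankrd37 had 2.95, 2.56 and 2.31 against 11.5, 9.61 and 8.23 CPM, 3.76-fold lower (adjusted p = 2.11e-05), with a range that overlaps the more abundant Ufsp2 (log2 fold change 0.06, adjusted p = 0.629). P4ha1 fell from 394 ± 57.5 to 181 ± 30.3 CPM (SD, n = 3 each), 2.18-fold (adjusted p = 0.000123). Its paralogue P4ha2 had a log2 fold change of 0.05 ± 0.09 SE (adjusted p = 0.638; -0.07 scaled by library totals only).

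The promoters of Egln3 and Ero1l, a lower and a higher hypoxia-linked gene, are shown in the same way (chr12:54203875-54204124 and chr14:45318573-45318822, minus strand).
Egln3: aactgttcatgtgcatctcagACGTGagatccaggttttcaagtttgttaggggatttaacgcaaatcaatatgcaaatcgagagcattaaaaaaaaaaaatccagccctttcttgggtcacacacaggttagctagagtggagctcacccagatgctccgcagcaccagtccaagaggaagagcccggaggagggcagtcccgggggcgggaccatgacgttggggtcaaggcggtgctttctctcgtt
Ero1l: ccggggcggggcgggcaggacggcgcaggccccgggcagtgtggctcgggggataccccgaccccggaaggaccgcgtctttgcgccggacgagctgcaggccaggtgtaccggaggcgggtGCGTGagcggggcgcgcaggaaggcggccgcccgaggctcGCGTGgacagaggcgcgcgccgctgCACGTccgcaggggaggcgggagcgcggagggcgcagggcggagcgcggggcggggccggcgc
Egln3 held 1 match, 229 bases before the start site, and Ero1l held 3, at 128, 88 and 63 bases before it.

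Ratios between paired genes within a library do not depend on how libraries are scaled, and 12 pairs were compared. The log2 ratio of Pfkp to Pfkl was -2.32 ± 0.0846 in the wild-type and 0.66 ± 0.122 in the knockout-labelled libraries (SD, n = 3 each), a 7.88-fold shift. The log2 ratio of Hk2 to Hk1 was higher by 1.30, Pfkfb3 to Pfkfb4 by 1.74, Aldoc to Aldoa by 1.41, Ldhb to Ldha by 1.84, P4ha2 to P4ha1 by 1.18 and Pfkm to Pfkl by 0.30. The difference was -3.06 for Slc2a3 to Slc2a1 and -2.78 for Epas1 to Hif1a. In these 9 pairs the groups did not overlap, which gives the smallest p that 3 against 3 libraries allow, 0.1 in a two-sided exact permutation test (0.133 adjusted over the 12 pairs), so no pair could pass 0.05. For Pfkm to Pfkl the gap was narrow, with log2 ratios of -2.066 in knockout replicate 1 and -2.075 in wild-type replicate 1. The share of non-overlapping ratios among other pairs of genes was not computed. Taken singly, 67.3% of all tested genes had non-overlapping groups, so the count of 9 is not a result about these pairs. Eno2 to Eno1 (a difference of 0.52), Egln3 to Egln1 (-0.57) and Pdk2 to Pdk1 (0.02) had overlapping groups, with exact p of 0.3, 0.3 and 1. Per kilobase, Hk2 made up 23.8% ± 4.86 of hexokinase in the wild type and 43.2% ± 2.90 in the knockout-labelled libraries, and P4ha2 went from 32.5% ± 2.34 to 52.1% ± 3.18 of the P4ha1 and P4ha2 total (SD, n = 3 each).

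**Figure D4:**
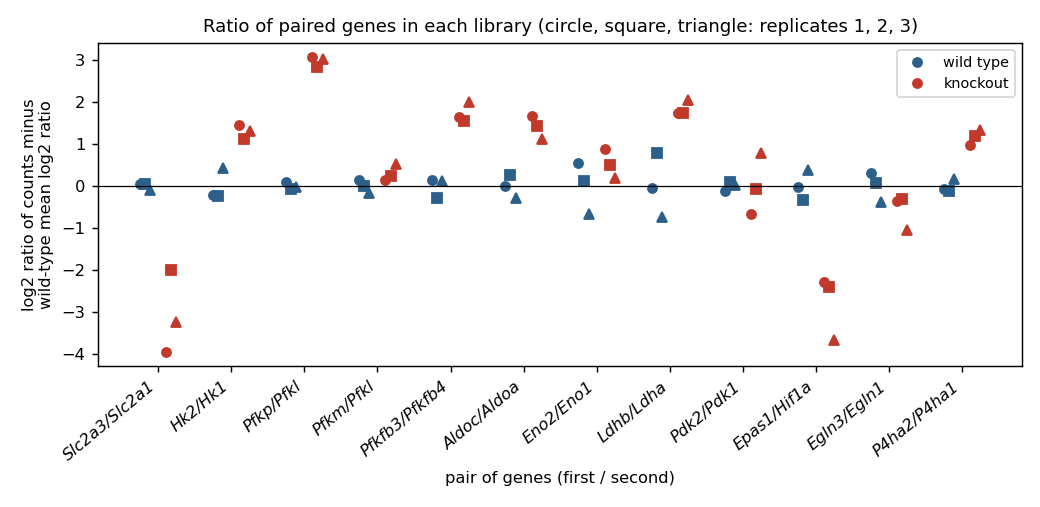
Log2 ratio of the counts of 12 gene pairs in each library, minus the mean of the wild-type libraries (vertical axis); blue marks are wild-type and red marks knockout-labelled libraries. Pfkp/Pfkl is higher in the 3 knockout-labelled libraries, Slc2a3/Slc2a1 and Epas1/Hif1a are lower, and the groups overlap for Eno2/Eno1, Pdk2/Pdk1 and Egln3/Egln1.

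Other genes of the pathway came from a list of 81, of which 65 were tested: 24 were lower, 20 higher and 21 did not pass, with a median log2 fold change of -0.14. That is 67.7% called against the 60.9% of all genes. Among 29 further hypoxia targets 14 were lower and 7 higher (72.4% called). Kdm3a, a HIF-induced histone demethylase gene, fell from 146 ± 14 to 52.2 ± 1.67 CPM, and the glycogen branching enzyme gene Gbe1 from 31.8 ± 1.83 to 9.90 ± 1.61 CPM (SD, n = 3 per group), with adjusted p of 1.21e-06 and 5.06e-06. The transferrin receptor gene Tfrc fell from 515 ± 187 to 164 ± 34.5 CPM (adjusted p = 0.00056). In contrast the lipase inhibitor gene Angptl4 rose from 3.40 ± 1.94 to 108 ± 28.3 CPM, the secreted glycoprotein gene Stc2 from 3.06 ± 0.93 to 41.0 ± 6.54 CPM and the heme oxygenase gene Hmox1 from 65.7 ± 5.86 to 180 ± 19.8 CPM (adjusted p = 1.96e-05, 5.7e-07 and 3.31e-06).

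Of 23 further genes of sugar and pyruvate metabolism, 9 were higher and 7 lower (69.6% called, against 60.9% of all genes). Pdk4, the pyruvate dehydrogenase kinase of fasting, had counts of 170, 181 and 204 under the knockout label and 19, 2 and 0 under the wild-type label (log2 fold change 4.81, adjusted p = 0.000281; 7.33 without wild-type replicate 1). This direction was opposite to that of Pdk1 and Pdk2. The remaining kinase gene of this family, Pdk3, named after its values were seen, did not pass (log2 fold change -0.14, adjusted p = 0.28). The glucose 6-phosphatase gene G6pc3 and the transporter gene Slc2a6 had log2 fold changes of 1.89 and 1.91, while Bpgm, Pgm2 and the pyruvate carboxylase gene Pcx had -1.53, -1.24 and -1.17, all past the threshold. Of 13 further HIF regulators 4 were higher and 3 lower, and the 53.8% called lay below the 60.9% of all genes. Cul2, the scaffold of the von Hippel-Lindau ligase, Arnt2 and the ubiquitin ligase gene Siah2 had log2 fold changes of 1.77, 1.22 and 1.20. Hif1an, the asparaginyl hydroxylase that silences HIF, Rbx1 and Arnt, the beta subunit, had -0.58, -0.57 and -0.32, of which Arnt lost its call when any of 4 single libraries was left out (adjusted p = 0.0939 to 0.146).

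Whole chromosomes also had medians away from 0, and several members sit on such chromosomes. The median log2 fold change of the other tested genes was -0.40 on chromosome 6, which carries Slc2a3, Hk2, Vhl, Eno2, Tpi1, Gapdh and Ldhb, and -0.42 on chromosome 9, which carries Pkm and Pfkfb4. On chromosome X, with Pgk1 and Pdha1, it was -0.24, and on chromosome 13, with Pfkp, it was 0.43. After the median of its chromosome was subtracted, each of the 24 lower members was still below 0, 21 of them by 0.5 or more. Each of the 6 higher members was above 0. These members were chosen by their calls, and most changed by more than any chromosome median, so this outcome was largely set in advance. Eno2, at -0.245, and Slc2a1, at -0.26, were left nearest to 0 among the lower ones. Within 5 Mb on each side, the other tested genes had a median of -0.526 around Eno2 and -0.187 around Slc2a1. The fold changes of Eno2 and Slc2a1 themselves were -0.646 and -0.346. Further genes named above also lie on such chromosomes. Kdm3a and Bpgm, which were lower, and Pdk4, which was higher, lie on chromosome 6, and Pdk3 lies on X. Slc2a6 lies on chromosome 2 (median 0.25), Gbe1 and Tfrc on 16 (-0.36) and Cul2 on 18 (0.45). The part of such regional shifts in the changes of the members or the further genes was not tested. Of the lower members, 7 lay on chromosomes whose median was above 0, among them Pdk1 on chromosome 2 (median 0.25) and Gpi1, Aldoa and Ldha on chromosome 7 (0.16). Among the 22 members off chromosomes 2, 6, 9, 13, 16, 18, X and Y, left out because earlier results of these data had shown shifted medians there, 16 were lower and 5 higher. Of all tested genes on any chromosome, 30.2% were lower and 30.7% higher. The shares over the kept chromosomes alone were not computed. Those chromosomes were shifted too, with medians from -0.175 on chromosome 17 to 0.162 on chromosome 7.

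**Figure D5:**
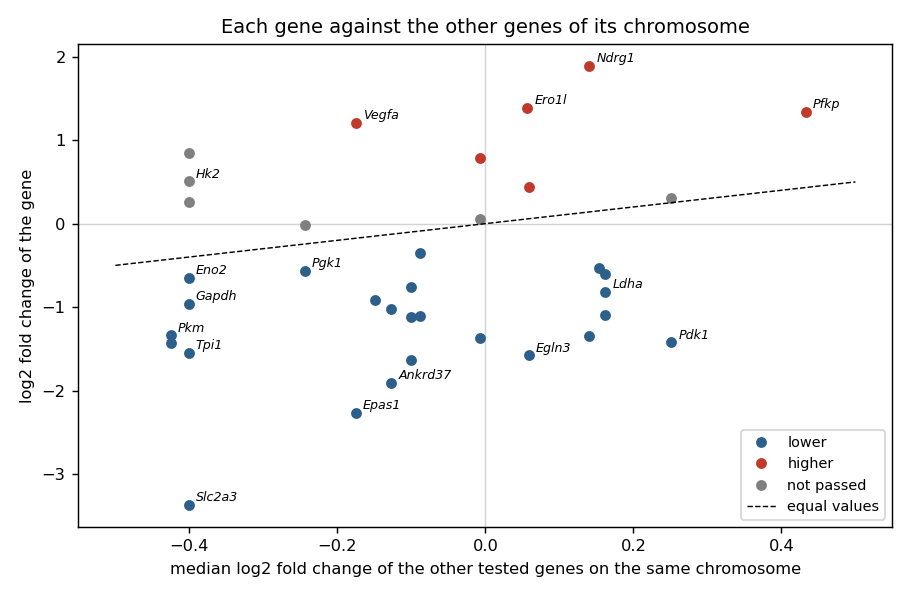
Log2 fold change of each of the 36 genes (vertical axis) against the median log2 fold change of the other tested genes on its chromosome (horizontal axis), coloured by the call; the dashed line marks equal values. The 24 lower genes lie below the line and the 6 higher ones above it.

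Within groups the members varied about as much as other genes, with a median coefficient of variation of 9.79% in the knockout-labelled and 11.2% in the wild-type libraries (10.3% and 12.9% over all tested genes). Wild-type replicate 3, the shallowest library, was the lowest of the wild-type libraries for 26 of the 36 members and for 42.5% of all tested genes. For the lower members among these, such as Eno2, Tpi1 and Pdk1, it was thereby the wild-type library nearest to the knockout-labelled ones. For Hk2, where wild-type replicate 3 was the highest wild-type library, it was also the nearest. Without it 24 members were lower and 7 higher.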

How the data were processed

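Per the labels' protocols, RNA came from Trizol extracts and libraries from the TruSeq Stranded Total RNA kit. The authors deposited raw counts, whole numbers per gene and library keyed by NCBI Gene ID, per the file headers; the submitters' processing notes list STAR 2.5.1b and mm10. Nothing used here states how reads were assigned to genes or whether by strand. Each column name gave its group and replicate. The members, lists and pairs were chosen with earlier results of these data known.

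Genes kept by filterByExpr were scaled by TMM and tested two-sided with edgeR 4.0.16 in R 4.3.3 (robust quasi-likelihood, genotype only, false discovery rate of 0.05). CPM uses TMM-scaled library sizes, and CPM per kb the longest coding GENCODE M21 transcript. Pair ratios added 0.5 to each count. From the further pathway genes, per sublist, up to 3 rises and 3 decreases were named by size among called, non-overlapping genes whose higher group averaged 100 counts or more. Alternatives used DESeq2 1.42.0 (size factors or test), limma 3.58.1 voom, other filters or scalings, a replicate block and left-out libraries. On data simulated from this comparison (15039 genes), 28.4% of 1.5-fold, 92.5% of 2-fold and 100% of 4-fold changes were recovered, with 6 of 153 calls false. The simulation gave every gene the same dispersion and changed only a small set of genes, none of them at low CPM. Its rates therefore need not hold for this comparison, where most genes were called, and do not cover low-count members. Promoters and positions are from RefSeq, GRCm38.p6.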

Additional observations from a re-analysis of the deposited data

How the results depend on the processing

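The log2 fold changes of 35 members were recomputed under 15 alternatives, and 27 of them kept direction and side of the threshold under all. Epas1 was removed by the filter of at least 1 CPM in 3 libraries, which left 23 lower members, and kept both under the other 14. The 8 that did not were Slc2a1, Hk2, Aldoc, Eno2, Ldhb, Pdha1, Vhl and P4ha2. Pdha1, near 0, turned to 0.0073 with no low-count filter and to 0.061 without both libraries numbered 3, and ran from -0.084 to 0.059 with single libraries left out. P4ha2 turned to -0.069 scaled by library totals only. That scaling moved the median of all tested genes from -0.04 to -0.16 and the share of higher calls from 50.4% to 42.4%, while 24 members stayed lower and 5 were higher. Over all alternatives fitted with the full list, 22 to 24 members were lower and 5 to 8 higher. The labels do not say whether the replicate numbers pair the libraries. Deviations of same-numbered libraries correlated at 0.0961, 0.0138 and 0.209. Knockout replicates 1 and 2 did not correlate best with their own numbers, while knockout replicate 3 did. So few libraries cannot decide whether the numbers mark a pairing. With the replicate number as a block, 4690 genes in all were higher and 4563 lower. Of the members, 24 were then lower and 8 higher, the additions being Hk2 (adjusted p = 0.00611) and Vhl (adjusted p = 0.0453). Among ratios, Pdk2 to Pdk1, near 0, became -0.35 without both libraries numbered 3 and ran from -0.37 to 0.36 with single libraries left out. Pfkm to Pfkl became 0.12 and Epas1 to Hif1a -2.16 without both libraries numbered 3. With a prior count of 5, Slc2a3 to Slc2a1 became -2.25 and Epas1 to Hif1a -2.17. The prior is added to each count, which draws in ratios of low counts. In the knockout-labelled libraries Slc2a3 had 3, 9 and 4 counts and Epas1 10, 7 and 3. The cause of the shifts without both libraries numbered 3 was not tested. Depth limits Slc2a3, Epas1 and Ldhb, with at most 70 counts in a library.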
